A study of Mus musculus with 7 samples.

Results

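Potassium channel genes were read across the uterus of control mice and of mice carrying a Foxl2 transgene allele. Members were all symbols of the table that begin with Kcn, go on with lower-case letters and end in a number, which takes in the pore-forming subunits and the accessory subunits. The rule found 92 of 24964 listed genes, 77 of them pore or pore-like subunits and 15 accessory subunits. The data were RNA sequencing of whole uterus from 12-week-old mice, taken in diestrus, and gave 7 libraries. The 3 control libraries, numbered 1, 2 and 4, had the genotype Pgrcre/+, written Pgr-Cre here. The 4 other libraries, numbered 1 to 4, had the genotype Pgrcre/+Foxl2LsL/+, written Foxl2-LSL here. All 7 carried the Cre allele at the progesterone receptor gene, whose activity sets in which uterine cells Cre is made. The labels do not say whether each library came from a separate animal, so the p-values measure the spread between these libraries, which may be technical.

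Potassium channels let potassium leave the cell and so hold the membrane potential negative. In the smooth muscle of the uterus, the myometrium, their opening quiets the muscle by keeping voltage-gated calcium channels shut, and in epithelium they provide the driving force for chloride and fluid secretion. Voltage-gated (Kv) channels open on depolarization, BK, SK and IK channels open when calcium rises inside the cell, inward rectifiers (Kir) set the resting potential, and tandem-pore (K2P) channels carry a steady leak. Accessory subunits such as KCNE, KChIP, Kv beta and BK beta proteins change how a pore opens or how much of it reaches the membrane.

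Levels are FPKM, fragments divided by gene length and by the fragment total of the library, so they can be compared between genes. The library totals inferred from the values were 47800000 to 67300000 fragments, of which 35547478 to 51721978 lay on listed genes and 28691 to 37665 on the members. Foxl2 itself was at 14.4 ± 4.32 FPKM (SD, n = 3) in controls and 14.7 ± 1.86 FPKM (SD, n = 4) in the libraries labelled Foxl2-LSL. That difference was smaller than the spread between libraries (limma, adjusted p 0.818), so the table shows no rise of Foxl2 and every direction below is that of the labels as they stand. Among markers of cell types, 3 of 10 smooth muscle genes were higher and 0 lower past the threshold, 7 of 8 endothelial genes and 6 of 8 vascular mural genes were lower, and 1 of 8 epithelial genes was higher. The summed level of the smooth muscle markers was 921 to 1773 FPKM in controls and 1602 to 2040 FPKM in Foxl2-LSL libraries, that of the endothelial markers 159 to 206 and 102 to 120 FPKM, that of the mural markers 92.4 to 183 and 78.3 to 101.3 FPKM, and that of the epithelial markers 768 to 1299 and 1005 to 1336 FPKM. No gene of these lists was at 0 in all libraries. The uterine identity genes Hoxa10, Hoxa11, Pgr and Esr1 were at 10.4 FPKM or more in every library, Hoxa10 and Hoxa11 lower and Esr1 higher in Foxl2-LSL libraries past the threshold. Markers of fat were uneven within both groups, at 2.01, 9.37 and 86.7 FPKM in controls 1, 2 and 4 and, from Foxl2-LSL 1 to Foxl2-LSL 4, at 3.60, 126, 228 and 17.2 FPKM. In whole tissue, fewer cells of a type and less RNA per cell cannot be told apart, and the part of cell makeup in the results below was not tested.

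Of the 92 members, 25 had a mean of at least 1 FPKM over the 7 libraries and were tested, 31 lay between 0.1 and 1 FPKM, and 36 lay below 0.1 FPKM. Among the 25 tested, 8 were higher and 2 were lower in Foxl2-LSL libraries at an adjusted p under 0.05 (limma on log2(FPKM + 1), Benjamini-Hochberg over 13334 genes). These 10 were 40% of the tested members, against 40.6% of all tested genes, so the share called was close to the background. By direction the background was 16.7% higher and 23.9% lower, or 2224 and 3185 genes, and with median-of-ratios scaling it was even at 2681 and 2628 genes while 8 members were higher and 2 lower there too. The median log2 difference was 0.17 over the 25 members and -0.051 over all tested genes. Kcnn4, Kcnc2, Kcnmb1, Kcnq1, Kcnh3 and Kcnk1 were among those that rose, and Kcnab1 among those that fell. Of these, Kcnc2 passed the filter of 1 FPKM only through the Foxl2-LSL libraries and Kcnab1 only through the controls. Libraries of the groups did not overlap for 8 members that were higher and 2 that were lower, against 19.7% and 27.9% of all tested genes (47.6% in either direction). The summed FPKM of all 92 members was 133, 146 and 143 in controls 1, 2 and 4 and 168, 191, 173 and 175 in Foxl2-LSL libraries 1 to 4.

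**Figure D1:**
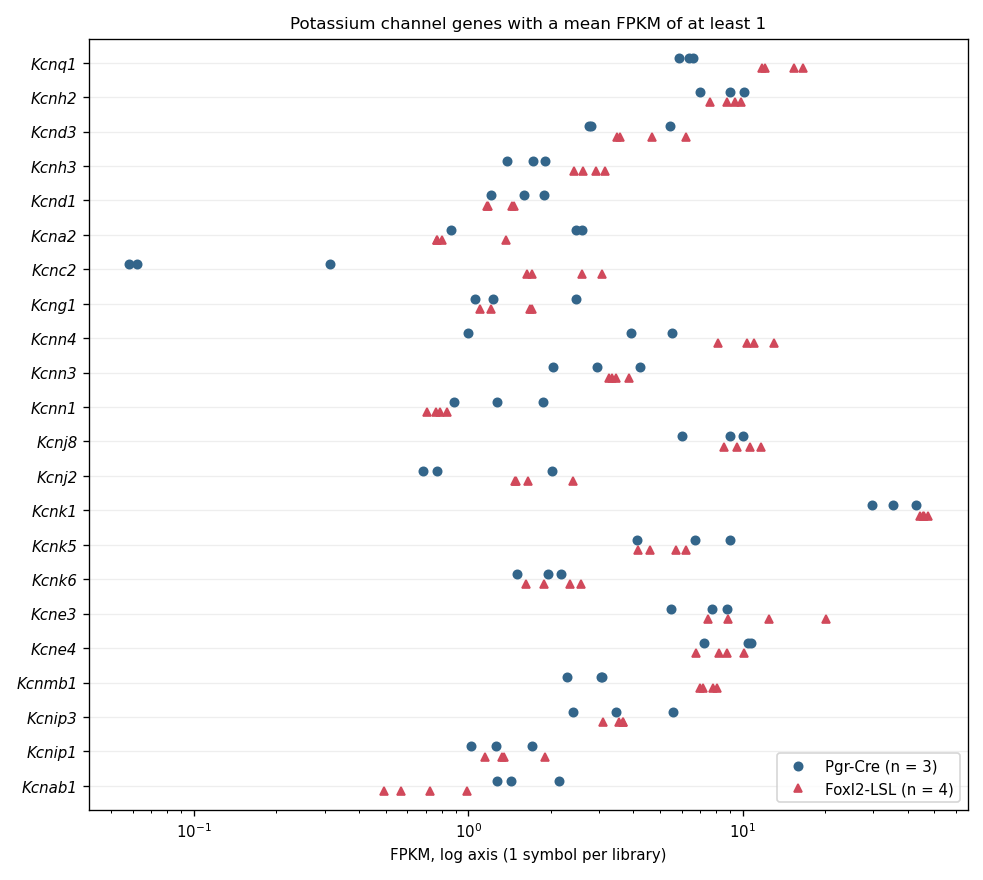
FPKM (log axis) of 22 of the 25 members with a mean of at least 1 FPKM, grouped from top to bottom as voltage-gated, silent voltage-gated, calcium-activated, inward rectifier, tandem-pore and accessory genes. Each circle is 1 of 3 Pgr-Cre libraries and each triangle 1 of 4 Foxl2-LSL libraries, and Kcnk1 stood highest at 29.6 to 47.4 FPKM.

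**Figure D2:**
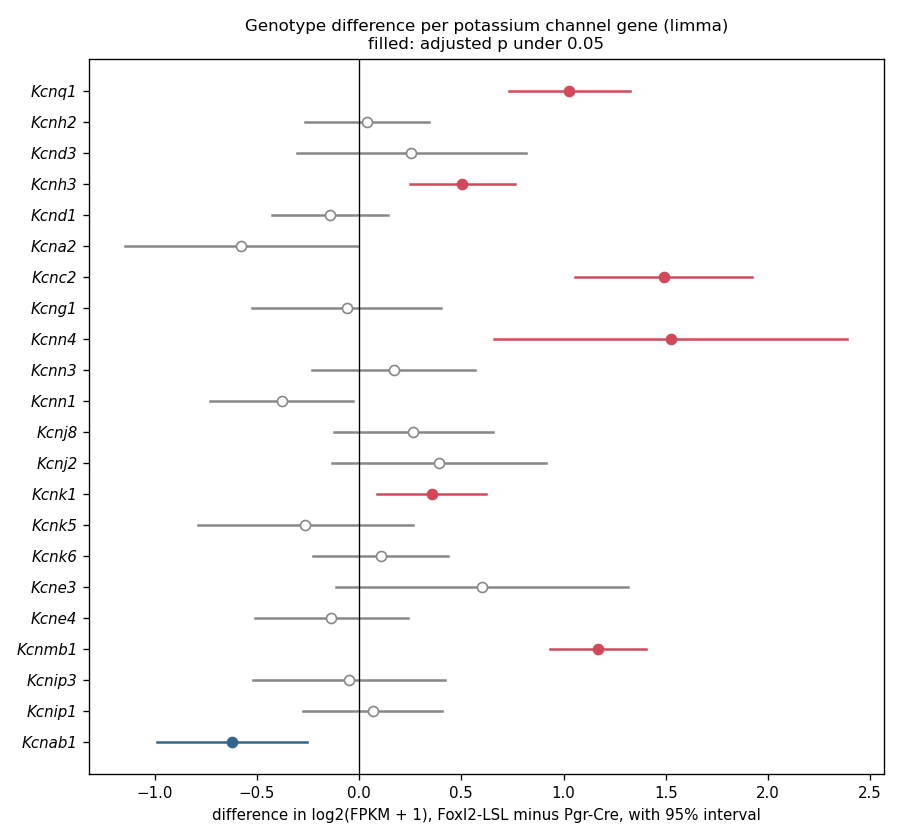
Difference in log2(FPKM + 1), Foxl2-LSL minus Pgr-Cre, for the same 22 genes (points) with 95% intervals from limma (lines). Filled points passed an adjusted p of 0.05, with 6 to the right of 0 and 1 to the left.

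The BK channel is the large-conductance channel of smooth muscle, opened by calcium and voltage, with Kcnma1 as its pore. Kcnmb1, its beta subunit of smooth muscle, raises the sensitivity of the pore to calcium. Kcnmb1 (chromosome 11, 33963013 to 33973641, plus strand, GRCm38) was at 2.30, 3.08 and 3.06 FPKM in controls and at 7.02, 8.09, 7.18 and 7.82 FPKM in Foxl2-LSL libraries. Every Foxl2-LSL library stood above every control, by 2.68-fold in the means (log2 difference 1.17, SE 0.10, limma adjusted p 0.00032). At least 610 fragments lay on Kcnmb1 in each library. The gene lies within the span of Kcnip1, which is on the opposite strand, and no exon of another gene overlaps its exons in GENCODE M21. Kcnip1 encodes a KChIP accessory protein of Kv4 channels, and averaged 1.33 ± 0.342 and 1.44 ± 0.329 FPKM (SD, n = 3 and n = 4), with groups that overlapped.

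Kcnma1 (chromosome 14, 23289431 to 24014491, minus strand) lay below the level for testing, at 0.388, 0.725 and 0.865 FPKM in controls and 0.886, 1.17, 0.936 and 1.16 FPKM in Foxl2-LSL libraries. The groups did not overlap, but controls 2 and 4 lay close to Foxl2-LSL 1 and 3. In the fit that kept genes with a mean of at least 0.1 FPKM, its log2 difference was 0.31 (SE 0.12, limma adjusted p 0.0739), and it passed only when control 4 was left out (0.395, adjusted p 0.0349). Within a library the ratio of Kcnmb1 to Kcnma1 was 5.92, 4.24 and 3.53 in controls and 7.92, 6.91, 7.68 and 6.72 in Foxl2-LSL libraries. The ratio thus stood higher in all 4 Foxl2-LSL libraries, by 0.709 on the log2 scale. Its two-sided exact permutation p was 0.0571, the smallest that 3 against 4 libraries allow, and 0.0914 after Benjamini-Hochberg adjustment over 8 ratios.

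Other beta and gamma subunits of BK did not all move in the same direction as Kcnmb1. Kcnmb2, a beta subunit that inactivates BK channels, was at 0.540, 0.550 and 0.235 FPKM in controls and at 0.016, 0.057, 0.113 and 0.007 FPKM in Foxl2-LSL libraries. Those 4 values rest on only 1 to 20 fragments each, against 45 to 108 in controls. It fell by 0.45 on the log2(FPKM + 1) scale (SE 0.09, limma with genes of at least 0.1 FPKM, adjusted p 0.00781). Kcnmb4 had a mean of 0.0957 FPKM in controls, on 3 to 10 fragments each, and was at 0 in 3 of 4 Foxl2-LSL libraries. Its groups overlapped, as Foxl2-LSL 2 at 0.062 FPKM stood above control 4 at 0.045 FPKM. Kcnmb3 was at or under 0.042 FPKM throughout. Lrrc26 is no member, but its leucine-rich protein is the gamma subunit that lets BK open at resting calcium in secretory epithelium. It was at 3.02, 4.51 and 1.76 FPKM in controls and 32.4, 14.9, 24.3 and 25.6 FPKM in Foxl2-LSL libraries, a 7.85-fold rise in the means (log2 difference 2.63, SE 0.30, limma adjusted p 0.000762).

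The window around the start of Kcnmb1 is shown because this gene had the lowest adjusted p among the members. It covers chr11:33962763-33963062 on the plus strand, from 250 bases before to 50 bases after the RefSeq start (GRCm38.p6), read 5′ to 3′, with the 50 transcribed bases in capitals.
Kcnmb1: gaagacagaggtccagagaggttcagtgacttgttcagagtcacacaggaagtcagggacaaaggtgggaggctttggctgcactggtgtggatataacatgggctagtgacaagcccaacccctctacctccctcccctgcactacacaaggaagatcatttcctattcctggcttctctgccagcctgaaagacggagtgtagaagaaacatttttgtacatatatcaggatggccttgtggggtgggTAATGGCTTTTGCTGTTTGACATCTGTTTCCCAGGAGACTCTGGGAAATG
Neither the forkhead core TGTTTAC nor the CArG box, the site of serum response factor in muscle genes, occurs in it on either strand. Of 32851 such windows in the genome, 3.65% hold the first and 1.63% the second. A RefSeq window was found for 67 of the 92 members, and 0 of their 92 windows hold either sequence.

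**Figure D3:**
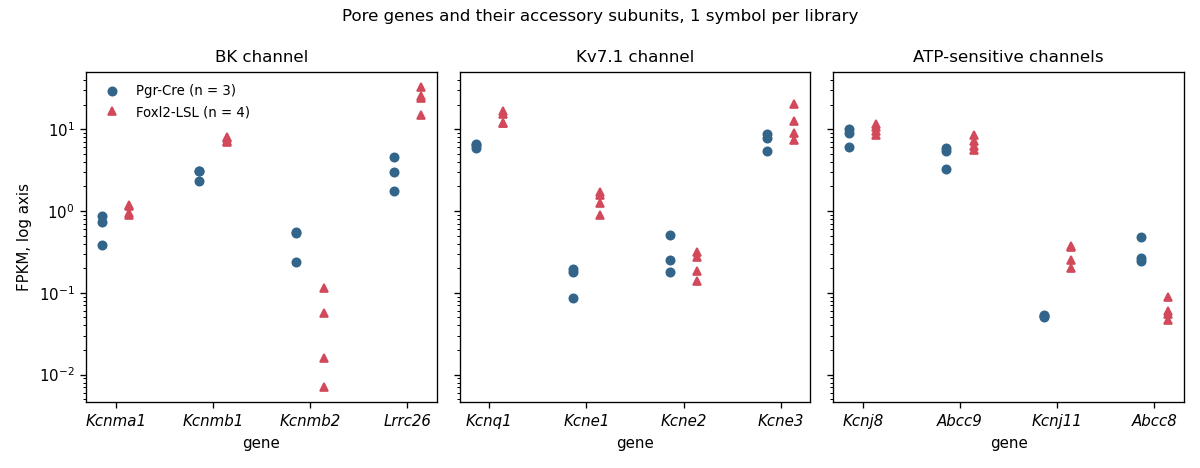
FPKM (log axis) of BK, Kv7.1 and ATP-sensitive channel genes with their accessory subunits, 1 circle for each of 3 Pgr-Cre libraries and 1 triangle for each of 4 Foxl2-LSL libraries. Kcnma1, Kcnmb1, Lrrc26, Kcnq1, Kcne1 and Kcnj11 stood higher in every Foxl2-LSL library, and Kcnmb2 and Abcc8 lower.

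Kcnn4 (chromosome 7, 24370263 to 24386690, plus strand) encodes the intermediate-conductance IK channel of epithelial and blood cells. It was at 3.93, 5.53 and 0.995 FPKM in controls and 10.4, 8.17, 11.0 and 13.0 FPKM in Foxl2-LSL libraries. Control 4 lay far below the other two controls, and all 4 Foxl2-LSL libraries lay above all controls. The means differed 3.06-fold (log2 difference 1.52, SE 0.37, limma adjusted p 0.0147). In the fit with the replicate number as a block the adjusted p was 0.0809, and without control 4 the log2 difference was 1.02. Leukocyte markers, of cells that also carry this channel, were higher past the threshold in 2 of 6 tested genes, with sums of 105 to 159 FPKM in controls and 147 to 202 FPKM in Foxl2-LSL libraries, and their part in the rise was not tested.

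The window at the Kcnn4 start, shown because this gene had the largest rise in log2(FPKM + 1), though not in fold, covers chr7:24370013-24370312 on the plus strand with the same layout.
Kcnn4: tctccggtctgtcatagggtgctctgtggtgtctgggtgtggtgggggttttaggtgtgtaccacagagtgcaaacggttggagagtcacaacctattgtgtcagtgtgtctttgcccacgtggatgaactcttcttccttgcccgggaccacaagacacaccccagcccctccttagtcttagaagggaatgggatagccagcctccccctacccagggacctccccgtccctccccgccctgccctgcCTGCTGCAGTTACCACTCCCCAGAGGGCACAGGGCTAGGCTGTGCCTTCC
It too holds neither TGTTTAC nor a CArG box.

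Kcnn3, the small-conductance SK channel that quiets the myometrium, was at 2.04, 4.24 and 2.95 FPKM in controls and 3.85, 3.45, 3.27 and 3.34 FPKM in Foxl2-LSL libraries. Control 2 was the highest of the 7 libraries and control 1 the lowest, so the groups overlapped (log2 difference 0.17, 95% interval -0.23 to 0.57). Kcnn2, another SK pore, averaged 0.496 ± 0.073 and 0.739 ± 0.091 FPKM (SD, n = 3 and n = 4), with every Foxl2-LSL library above every control. Its adjusted p was 0.0467 (limma, genes of at least 0.1 FPKM), which rose to between 0.0538 and 0.138 when any library other than control 4 was left out. Kcnn1 was lower in every Foxl2-LSL library, at 1.34 ± 0.496 and 0.775 ± 0.0549 FPKM, but did not pass (limma adjusted p 0.0785, and 0.0233 without control 1). The sodium-activated Kcnt2 averaged 0.676 ± 0.150 and 1.09 ± 0.0854 FPKM (SD, n = 3 and n = 4) and passed in the same fit (log2 difference 0.32, limma adjusted p 0.0211), though not without control 1 or Foxl2-LSL 1.

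Voltage-gated pores were 10 of the 25 tested members. Of the 10, 5 rose and 1 fell, against 16.7% and 23.9% of all tested genes. Kcnc2, 1 of the 5, entered the tested genes only through the Foxl2-LSL libraries, so this count is not read as a trait of the class. Kcnq1 (chromosome 7, 143106362 to 143427042, plus strand) encodes Kv7.1, a slow channel of heart muscle and of secreting epithelia. It was at 6.62, 6.36 and 5.85 FPKM in controls and at 12.1, 15.4, 16.6 and 11.8 FPKM in Foxl2-LSL libraries. Controls lay within 1 FPKM of each other and every Foxl2-LSL library was well above them, by 2.23-fold in the means (log2 difference 1.03, SE 0.13, limma adjusted p 0.00111). Kcnq1ot1, the imprinted antisense transcript of this locus, overlaps Kcnq1 exons by 121 bases in GENCODE M21 and averaged 0.208 ± 0.0201 and 0.225 ± 0.0236 FPKM (SD, n = 3 and n = 4). Use of strand in counting is not given in the sources used here, so reads of the shared bases cannot be assigned to one of the pair. The same holds for exons of Kcnab1, Kcnk1 and Kcnh3, which share 201, 179 and 1 bases with a gene on the opposite strand, and for those of Kcnma1 (1016 bases), Kcnk2 (604), Kcnn2 (284 and 323 with 2 genes), Kcnk3 (229), Kcnip4 (168 and 99 with 2 genes), Kcnd3 (165), Kcnab3 (147), Kcnn1 (132) and Kcnt2 (102). It holds too for Kcnj3 (1621 bases), Kcnmb4 (355 and 693 with 2 genes), Kcnj13 (623), Kcnj15 (333), Kcnq5 (237) and Kcne3 (9). Kcnk4 and Kcnab2 share 587 and 125 bases with a gene on the same strand.

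Partners of Kv7.1 are KCNE proteins, single-span subunits that slow the channel (KCNE1) or hold it open (KCNE2 and KCNE3). Kcne1 (chromosome 16, 92345982 to 92359468, minus strand) was at 0.197, 0.182 and 0.086 FPKM in controls and 1.26, 1.59, 1.69 and 0.894 FPKM in Foxl2-LSL libraries. The means differed 8.76-fold, on 18 to 40 fragments per control library and 150 to 327 per Foxl2-LSL library. It passed in the fit of genes of at least 0.1 FPKM (log2 difference 1.02, SE 0.13, limma adjusted p 0.00131). Kcne3 was at 7.71, 8.74 and 5.48 FPKM in controls and 7.47, 20.2, 12.5 and 8.85 FPKM in Foxl2-LSL libraries. Its highest values were those of Foxl2-LSL 2 and 3, the libraries with the most fat markers (126 and 228 FPKM in sum), and Foxl2-LSL 1 lay among the controls, so it did not pass (limma adjusted p 0.154). Whether fat in the sample bears on this was not tested. Kcne2 was at 0.311 ± 0.170 and 0.228 ± 0.0816 FPKM, and Kcne4 at 9.46 ± 1.94 and 8.48 ± 1.38 FPKM, both with groups that overlapped.

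Kcnq5, a Kv7 pore of smooth muscle, averaged 0.343 ± 0.144 and 0.355 ± 0.0363 FPKM (SD, n = 3 and n = 4).

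Kcnc2 (chromosome 10, 112271121 to 112467024, plus strand), a fast Kv3 pore known from neurons, was at 0.058, 0.062 and 0.313 FPKM in controls and 3.08, 1.63, 1.71 and 2.59 FPKM in Foxl2-LSL libraries. This was the largest fold among tested members, 15.6-fold in the means (log2 difference 1.49, SE 0.19, limma adjusted p 0.00113). With a control mean of 0.144 FPKM, Kcnc2 passed the filter of 1 FPKM only through the Foxl2-LSL libraries, so its place among tested members rested on that group. Between 23 and 128 fragments lay on it in controls and between 486 and 1259 in Foxl2-LSL libraries. Of 8 nerve and glia markers 1 reached the level for testing and was higher. The 8 summed to 2.67 to 4.09 FPKM in controls and 4.05 to 5.94 FPKM in Foxl2-LSL libraries. The part of nerve or glia in the rise of Kcnc2 was not tested. Kcnc4, another Kv3 pore, was at 0.277, 0.380 and 1.69 FPKM in controls and at 0.192 to 0.243 FPKM in Foxl2-LSL libraries. All of the latter lay below the controls, which spread widely, and it did not pass (limma with genes of at least 0.1 FPKM, adjusted p 0.165).

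Kcnh3, an EAG-type pore best known from the forebrain, rose by less, from 1.67 ± 0.262 to 2.78 ± 0.320 FPKM (SD, n = 3 and n = 4) (log2 difference 0.50, SE 0.11, limma adjusted p 0.00956). Its groups did not overlap. Kcnb2, a Kv2 delayed rectifier, fell, at 0.291, 0.322 and 0.353 FPKM in controls and 0.069, 0.051, 0.034 and 0.061 FPKM in Foxl2-LSL libraries (limma with genes of at least 0.1 FPKM, adjusted p 0.00232). Its values rest on 11 to 24 fragments in each Foxl2-LSL library and 98 to 123 in each control. Kcnh2, the ERG channel that shapes contractions of the pregnant myometrium, averaged 8.70 ± 1.60 and 8.90 ± 0.960 FPKM (SD, n = 3 and n = 4), with a 95% interval of the log2 difference of -0.27 to 0.34. Kcna2, a Kv1 pore, was at 2.47, 2.59 and 0.862 FPKM in controls and 0.772, 1.37, 0.768 and 0.802 FPKM in Foxl2-LSL libraries, so control 4 lay among the latter (limma adjusted p 0.0963, and 0.00376 without control 4). The Kv4 genes Kcnd1 and Kcnd3, which carry fast transient currents, overlapped between groups at 1.57 ± 0.338 and 1.32 ± 0.160 FPKM and at 3.66 ± 1.54 and 4.48 ± 1.29 FPKM. Kcnd2, a Kv4 pore, was at 3.07 FPKM in control 4, 0.142 and 0.435 FPKM in controls 1 and 2, and 0.042 to 0.087 FPKM in Foxl2-LSL libraries. All 4 lay below the controls, which spread widely, and the gene passed only without control 1 (limma with genes of at least 0.1 FPKM, adjusted p 0.132, and 0.0449 without that library). Kcna5, a Kv1 pore of vascular muscle, overlapped between groups at 0.084 to 0.426 and 0.095 to 0.293 FPKM.

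Silent Kv subunits form no channel alone and change Kv2 pores they join. Of 10 such genes 6 reached 0.1 FPKM, and Kcng1, the most abundant, overlapped between groups at 1.06 to 2.46 FPKM in controls and 1.10 to 1.71 FPKM in Foxl2-LSL libraries. Kcns3 and Kcng3 were higher at 0.977 ± 0.169 against 0.609 ± 0.0589 FPKM and at 0.509 ± 0.189 against 0.179 ± 0.0492 FPKM, Foxl2-LSL against controls. Kcng4 was at 0.810, 1.52 and 1.70 FPKM in controls and 0.240, 0.491, 0.541 and 0.339 FPKM in Foxl2-LSL libraries, a 3.33-fold difference in the means. Their adjusted p values were 0.0313, 0.0334 and 0.00849 (limma, genes of at least 0.1 FPKM). The call of Kcns3 was lost when any library other than Foxl2-LSL 3 was left out and that of Kcng3 when any other than Foxl2-LSL 1 was, while that of Kcng4 was kept in each of those 7 fits.

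Inward rectifiers gave no call among the 2 genes tested. Kcnj8 encodes Kir6.1, the pore of the ATP-sensitive channel of vascular and uterine muscle, and Abcc9 its sulfonylurea receptor. Kcnj8 was at 6.03, 8.99 and 10.02 FPKM in controls and 8.52, 11.7, 9.53 and 10.6 FPKM in Foxl2-LSL libraries, with groups that overlapped (limma adjusted p 0.240). Abcc9, its neighbour on chromosome 6, was at 3.25, 5.47 and 5.84 FPKM in controls and 5.52, 8.44, 6.23 and 7.12 FPKM in Foxl2-LSL libraries, so Foxl2-LSL 1 lay among the controls (limma adjusted p 0.105, and 0.0453 in the fit with the replicate number as a block). Kcnj11 and Abcc8, the Kir6.2 pore and the receptor known from pancreatic beta cells, are neighbours on chromosome 7. Kcnj11 was at 0.053, 0.050 and 0.052 FPKM in controls and 0.249, 0.373, 0.366 and 0.199 FPKM in Foxl2-LSL libraries, on 11 fragments in each control. Abcc8 was at 0.245, 0.267 and 0.480 FPKM in controls and 0.055, 0.089, 0.060 and 0.046 FPKM in Foxl2-LSL libraries. The pore thus rose and the receptor fell, with no overlap in either (limma, genes of at least 0.1 FPKM, adjusted p 0.0102 and 0.0112). Kcnj4 fell from 0.206 ± 0.0259 to 0.0253 ± 0.0177 FPKM (SD, n = 3 and n = 4), with an adjusted p of 0.00744 in that limma fit. Its values rest on only 1 to 5 fragments in each Foxl2-LSL library and 25 to 31 in each control. Kcnj2, the classical inward rectifier, was at 2.02, 0.772 and 0.685 FPKM in controls and 1.48 to 2.40 FPKM in Foxl2-LSL libraries, since control 1 lay among the latter (limma adjusted p 0.198, and 0.0190 without control 1). Kcnj13, known from human myometrium, had 10 to 25 fragments per library and was under 0.1 FPKM on average.

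Tandem-pore genes held the most abundant member. Kcnk1 (chromosome 8, 125995170 to 126030685, plus strand) encodes the leak channel TWIK-1. It was at 42.8, 35.5 and 29.6 FPKM in controls and 44.5, 46.0, 47.4 and 45.4 FPKM in Foxl2-LSL libraries. It made up 27.0% to 40.1% of the summed FPKM of the pore genes in controls and 31.9% to 34.4% in Foxl2-LSL libraries. Control 1 lay just under the Foxl2-LSL libraries, and the call was narrow (log2 difference 0.36, SE 0.12, limma adjusted p 0.0411). It was lost when any single library other than control 1 was left out, and without control 4 the log2 difference was 0.228. Kcnk5 and Kcnk6 overlapped between groups at 6.61 ± 2.44 and 5.17 ± 0.964 FPKM and at 1.88 ± 0.346 and 2.11 ± 0.429 FPKM. Kcnk5, the acid-sensitive TASK-2 channel of epithelia, was lower past the threshold only without control 4 or with array weights (limma adjusted p 0.384, and 0.0445 and 0.0481 in those fits). Kcnk2, the stretch-activated TREK-1 channel of the myometrium, averaged 0.712 ± 0.174 and 0.987 ± 0.133 FPKM (SD, n = 3 and n = 4), also with overlap. Kcnk3, the acid-sensitive TASK-1 channel, was at 0.919, 0.816 and 1.48 FPKM in controls and 0.441, 0.648, 0.486 and 0.759 FPKM in Foxl2-LSL libraries. Each Foxl2-LSL library lay below each control, at an adjusted p of 0.0503 (limma, genes of at least 0.1 FPKM), which was 0.0424 with limma-voom on fragments and 0.0480 without control 2. Kcnk4, Kcnk7 and Kcnk13, other leak channel genes between 0.1 and 1 FPKM, overlapped between groups.

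Kv beta subunits, cytoplasmic partners of Kv1 pores, were all lower. Kcnab1 (chromosome 3, 65109384 to 65378223, plus strand) was at 1.43, 1.27 and 2.15 FPKM in controls and 0.570, 0.726, 0.493 and 0.986 FPKM in Foxl2-LSL libraries, a 2.33-fold difference (log2 difference -0.62, SE 0.16, limma adjusted p 0.0170). It passed the filter of 1 FPKM only through the controls. Kcnab2 and Kcnab3 fell from 0.921 ± 0.235 to 0.448 ± 0.0953 FPKM and from 1.01 ± 0.0639 to 0.438 ± 0.0688 FPKM (limma, genes of at least 0.1 FPKM, adjusted p 0.0158 and 0.00187). In none of the 3 did a Foxl2-LSL library reach a control. KChIP genes, partners of Kv4 pores, did not move together. Kcnip4 rose from 0.268 ± 0.0515 to 0.845 ± 0.140 FPKM (SD, n = 3 and n = 4) (limma, genes of at least 0.1 FPKM, adjusted p 0.00221), while Kcnip1, Kcnip2 and Kcnip3 did not pass. Kcnip2 was still lower in every Foxl2-LSL library, at 0.686 to 0.933 FPKM against 0.973 to 1.095 FPKM in controls (limma adjusted p 0.0637 in that fit).

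Beyond the 25 tested genes, the fit that kept genes of at least 0.1 FPKM tested 56 members and called 15 higher and 8 lower. That was 41.1% of them, against 36.2% of all genes in that fit (15.1% higher and 21% lower). Groups did not overlap for 16 of the 56 that were higher and 12 that were lower, against 19.1% and 25.7% of all genes in that fit (44.7% in either direction). Added to the calls above were 7 rises (Kcnt2, Kcne1, Kcns3, Kcnn2, Kcnip4, Kcng3 and Kcnj11) and 6 falls (Kcng4, Kcnab3, Kcnab2, Kcnmb2, Kcnb2 and Kcnj4), named here after their values were seen. Of these, Kcnj11 passed the filter of 0.1 FPKM only through the Foxl2-LSL libraries, and Kcnmb2, Kcnb2 and Kcnj4 only through the controls. The limma-voom fit on recovered fragments of the same genes called 24 members, 15 higher and 9 lower, against a background of 36.7%. Of the 36 members under 0.1 FPKM, 8 had at most 3 fragments in every library, and Kcna10 and Kcnj1 had none in any, which leaves room for up to 3 fragments per library. Among these 36, Kcnh5 and Kcnj16 were higher in every Foxl2-LSL library and Kcnj14, Kcnt1, Kcnj3, Kcnk16, Kcnj15, Kcnj12 and Kcns1 were lower, on at most 76 fragments per library. The separation of Kcnk16 rested on 5 fragments in each control and 2 to 3 in each Foxl2-LSL library. That of Kcnj16 rested on 0 to 1 in controls and 2 to 14 in Foxl2-LSL libraries. The 2 and 7 of 36 stand beside 204 and 259 of all 8236 genes under 0.1 FPKM, or 2.48% and 3.14% (5.62% in either direction). The 8236 include genes at 0 in every library, which cannot separate, while only 2 of the 36 members were at 0. The shares are thus not like for like, and nothing is drawn from them. Kcnj3, a pore of the G protein-gated rectifier, was at 0.067, 0.151 and 0.222 FPKM in controls and 0.032, 0.012, 0.025 and 0 FPKM in Foxl2-LSL libraries. Kcnh5, an EAG pore, was at 0.023, 0.037 and 0.026 FPKM in controls and 0.094, 0.175, 0.114 and 0.145 FPKM in Foxl2-LSL libraries.

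**Figure D4:**
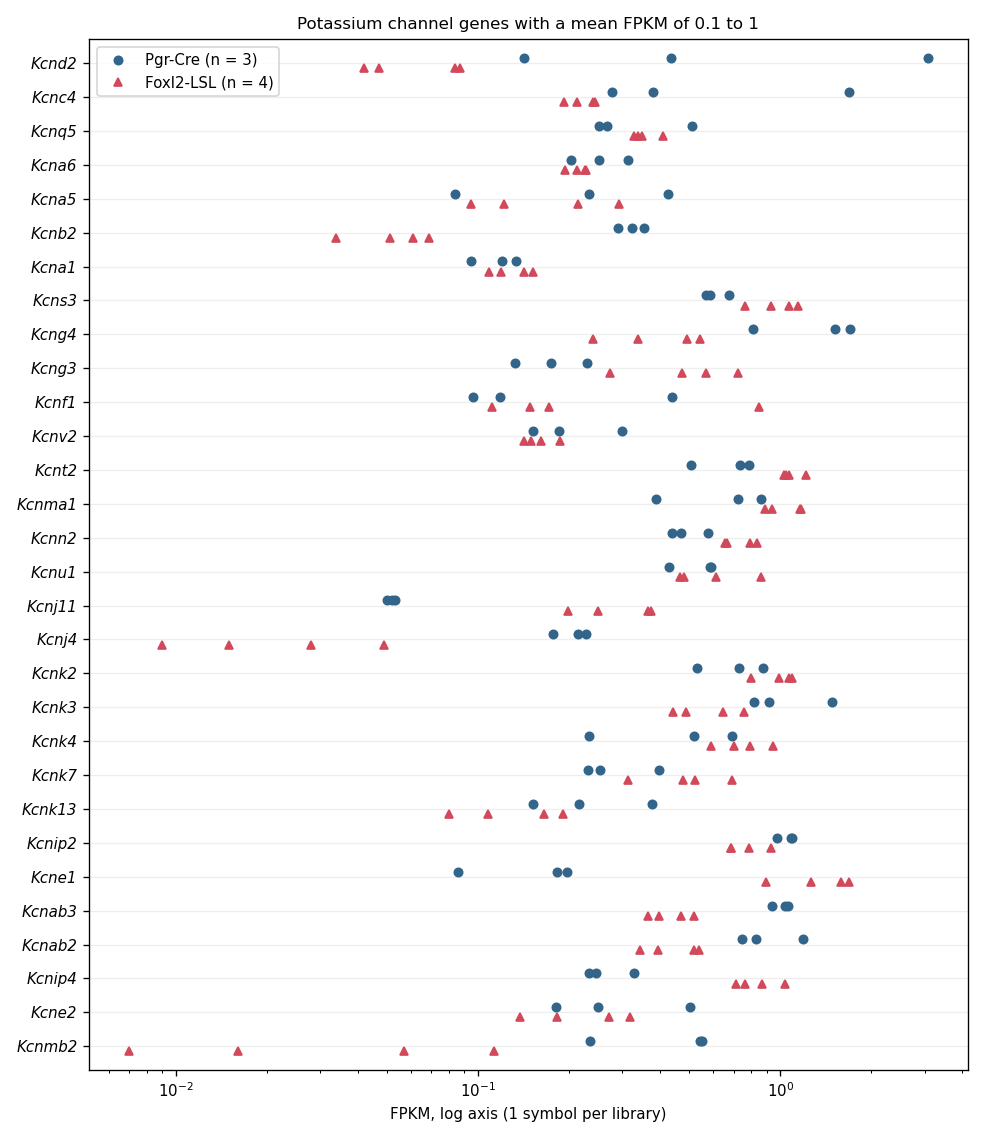
FPKM (log axis) of 30 of the 31 members with a mean of 0.1 to 1 FPKM in the same order of roles, 1 circle for each of 3 Pgr-Cre libraries and 1 triangle for each of 4 Foxl2-LSL libraries. Kcne1, Kcnip4 and Kcnj11 stood apart to the right in Foxl2-LSL libraries and Kcnb2, Kcnj4 and Kcnmb2 to the left, while Kcnd2 and Kcnc4 each had 1 control far above the rest.

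To set channel levels beside the smooth muscle markers, 6 channel genes of muscle are given as divided by Myh11, the smooth muscle myosin heavy chain, in the same library. Myh11 was at 81.0, 82.0 and 159 FPKM in controls and 229, 199, 191 and 210 FPKM in Foxl2-LSL libraries (log2 difference 1.01, SE 0.23, limma adjusted p 0.0107). Relative to it, Kcnmb1 was at 2.84% ± 0.914 (SD, n = 3) and 3.66% ± 0.422 (SD, n = 4), and its groups overlapped. Kcnma1 was at 0.636% ± 0.218 and 0.505% ± 0.0886, also with overlap. Kcnab1 stood at 1.77%, 1.55% and 1.35% in controls and 0.249%, 0.365%, 0.258% and 0.470% in Foxl2-LSL libraries. Kcnk3 stood at 1.14%, 0.995% and 0.933% in controls and 0.193%, 0.326%, 0.254% and 0.362% in Foxl2-LSL libraries. Kcnj8 and Kcnn3 were lower relative to Myh11 in all Foxl2-LSL libraries, by 0.724 and 0.783 on the log2 scale where Kcnab1 and Kcnk3 were lower by 2.25 and 1.88. For those 4 an exact permutation test (two-sided) gave the smallest possible p of 0.0571, and 0.0914 after adjustment over 8 ratios. For Kcnmb1 and Kcnma1 the exact permutation p was 0.171 and 0.514. Myh11 rose more than most smooth muscle markers, such as Des and Synpo2, at log2 differences of 0.20 and 0.13, so these ratios depend on it as the denominator. Against the geometric mean of all 10 smooth muscle markers, an alternative chosen after seeing the data, Kcnj8 and Kcnn3 overlapped between groups (-0.199 and -0.258), Kcnma1 turned to 0.228 with overlap, and Kcnmb1 was higher in every Foxl2-LSL library (0.936). Kcnab1 and Kcnk3 were lower in every Foxl2-LSL library against that mean as well (-1.73 and -1.36).

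**Figure D5:**
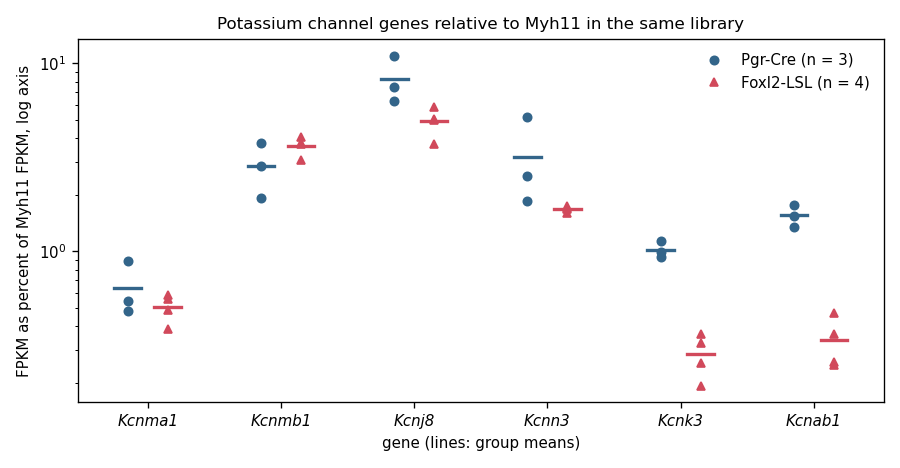
FPKM of 6 channel genes as a percent of Myh11 FPKM in the same library (log axis), with 1 circle for each of 3 Pgr-Cre libraries, 1 triangle for each of 4 Foxl2-LSL libraries and a line at each group mean. Kcnk3 and Kcnab1 were separated most, and Kcnma1 and Kcnmb1 overlapped.

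Other genes of excitability were taken from 6 lists with 57 genes, 43 of them tested. Of these 11 were higher and 8 lower (44.2%, limma adjusted p under 0.05, background 40.6%), or 12 higher and 5 lower with median-of-ratios scaling. Among calcium entry genes 3 of 13 were higher and 4 lower, and 2 of those 4 lost their call without control 2. Cacna1g, a T-type calcium channel pore that starts action potentials, fell from 11.6 ± 2.12 to 3.27 ± 0.380 FPKM (SD, n = 3 and n = 4) (log2 difference -1.55, SE 0.13, limma adjusted p 0.000317). The cation channel genes Trpc4 and Trpc1 were higher by 0.75 and 0.64 on the log2 scale. In the uterotonic list 1 of 9 was higher and 1 lower. Oxtr, the oxytocin receptor, rose from 2.51 ± 1.04 to 6.15 ± 0.996 FPKM (log2 difference 1.06, SE 0.22, limma adjusted p 0.00702), and Ptger3, a prostaglandin E receptor, had a log2 difference of -0.94. Genes of the sodium-potassium pump, which builds the potassium gradient, were higher in 4 of 6 and lower in 1. Its subunit Atp1b2 had a log2 difference of 0.40 and Atp1b1 one of -1.11, with control 4 at 143 FPKM against 47.2 and 45.7 FPKM in controls 1 and 2 and a log2 difference of -0.582 without control 4. The call of Atp1b2 was lost when any library other than control 4 was left out, and that of Atp1b1 without any 1 Foxl2-LSL library. Ano1, a calcium-activated chloride channel that depolarizes muscle, fell by 0.75 and the sodium channel gene Scn7a rose by 0.39 on the log2 scale, the 2 tested of 8 in their list. Ano1 lost its call without control 2 or 4 or Foxl2-LSL 1 or 3, and Scn7a without control 1 or Foxl2-LSL 2 or 3. Of 8 tested genes for calcium stores and removal 1 was lower, Atp2a2 (-0.32), the calcium pump of the reticulum, whose call was lost without any 1 of control 1, control 2, or Foxl2-LSL 1, 3 or 4. Among channel partners 2 of 5 were higher, Lrrc26 and Amigo1 (0.39), a partner of Kv2 pores, whose call was lost when any library other than Foxl2-LSL 1 was left out.

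Of all tested genes, those whose log2(FPKM + 1) followed Kcnmb1 most closely over the 7 libraries were Bloc1s5, Stom and Tmem87b, with Pearson r of 0.998 for the first. For Kcnn4 they were Sowahc, 2010300C02Rik and Itgb6 (0.997 for the first). These values describe likeness only, since the libraries fall into 2 groups and share their depth.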

How the data were processed

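The authors deposited 1 table of FPKM values with 1 column per library and the length in bases of each gene. The submitters' processing notes name STAR 2.5.2b, featureCounts 1.5.0-p1 from Subread, DESeq2 1.12.4 and build mm10, with no role for each. The annotation, strand setting, filters and FPKM calculation are not given in the sources used here. Labels gave the groups, and columns were matched to samples by their descriptions. FPKM times length fell on whole multiples of 1 step per library (genes up to 1500 bases, up to 20 multiples, 100% within 0.1 of a whole number), and fragments were recovered from it. They show counting error only, and PCR copies are not independent molecules.

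Genes with a mean of at least 1 FPKM (13334) entered a fit of log2(FPKM + 1) in R 4.3.3 with limma 3.58.1 (lmFit and eBayes, trend on), Benjamini-Hochberg adjusted over all of them at 0.05. The fold on this scale understates the change of low genes. A second fit used a mean of at least 0.1 FPKM. Ratios were compared by two-sided exact permutation over 35 splits (scipy 1.17.1). Only the limma fit of genes with a mean of at least 1 FPKM was run on simulated data. The second fit, limma-voom, the recovery of fragments and the ratios were not. Figures used matplotlib 3.10.9. Coordinates came from GENCODE M21 on GRCm38 and windows from RefSeq. The members, lists and rules for naming were chosen with earlier results of these data known: named were the members past the threshold, the 8 most abundant, 19 channel genes of muscle and epithelium whatever their result, and up to 4 called genes per list. Other members named were chosen after their values were seen. Alternatives covered scaling, pseudocount, filters, limma-voom, array weights, the replicate block and each library left out. Some members and listed genes entered every fit and count but are not reported here by name or in figures.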

Additional observations from a re-analysis of the deposited data

Results flagged for a closer look

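Within the 4 Foxl2-LSL libraries, 56 members were checked for 1 library standing far from the other 3 by Dixon's gap test. Chance gives about 5%, or 2.8 members, and 2 were found. Kcna2, a Kv1 pore, was at 1.37 FPKM in Foxl2-LSL 2 and at 0.772, 0.768 and 0.802 FPKM in the other 3. Kcnf1, a silent Kv subunit, was at 0.852 FPKM in Foxl2-LSL 2 and at 0.111 to 0.172 FPKM in the other 3.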

How the results depend on the processing

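The count of members past the threshold was 10, and ranged from 7 to 12 when any 1 of the 7 libraries was left out. With a mean of at least 5 FPKM it was 5 of 10 tested, against 3980 of 9476 of all genes. With at least 0.1 FPKM it was 23 of 56, against 6050 of 16728. With no filter beyond a value above 0 it was 27 of 90, against 5804 of 21011. Limma-voom on genes of at least 0.1 FPKM, an alternative chosen after seeing the data, gave 24 of 56, against 6131 of 16728. These filters changed which genes were tested. Array weights gave 14 members (9 higher, 5 lower), 25 excitability genes and 7250 of all genes. The excitability count of 19 of 43 tested became 12 of 28 with at least 5 FPKM. It was 10 to 19 across the fits leaving out 1 library, lowest without Foxl2-LSL 3 and 11 without control 2. The fit without Foxl2-LSL 3 is the same as that on the libraries numbered 1, 2 and 4 only. With the replicate block on the libraries numbered 1, 2 and 4, 3243 of all genes and 11 excitability genes passed, and 7 members. Without the block, 3975 of all genes passed on the same libraries and 5409 on all 7. Deviations of same-numbered libraries correlated at 0.228, -0.0306 and -0.112 for numbers 1, 2 and 4. These few values have no interval or reference for unpaired libraries, so they cannot decide whether the numbers pair the libraries. All-gene counts leaving out 1 library ranged from 3853 to 5328.

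Of the 10 called members 6 kept their call in every alternative that tested them (among them Kcnq1, Kcnmb1, Kcnh3, Kcnc2 and Kcnab1), and none changed direction. Kcnh3, Kcnc2 and Kcnab1 were not tested in the fit of genes with a mean of at least 5 FPKM. Directions that turned among the genes given here, all without a call, were those of Kcnip3 (0.001 with quantile normalization, 0.025 with array weights, -0.275 to 0.201 leaving out 1 library), Kcnn3 (-0.093 with array weights, -0.024 to 0.368), Kcng1 (0.133 with array weights, -0.207 to 0.169), Foxl2 (-0.148 with array weights, -0.100 to 0.275), Kcnh2 (-0.095 to 0.145), Kcnip1 (-0.029 to 0.178), Kcna5 (-0.170 to 0.028), Kcne2 (-0.161 to 0.013), Kcnf1 (-0.079 to 0.221), Kcnq5 (-0.029 to 0.105) and the ratio of Kcnma1 to Myh11 (0.228 against the mean of 10 smooth muscle markers). The cause was not tested. Directions were not compared across alternatives for Kcnip2, Kcnc4, Kcnk4, Kcnk7, Kcnk13, Abcc8, members under 0.1 FPKM or cell type markers other than Myh11.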
